A study of Mus musculus with 9 samples.

Results

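The expression of 10 genes of the tumour necrosis factor (TNF) superfamily was followed in mouse bone marrow-derived macrophages (BMDMs). They were chosen by symbol, as the rows whose Ensembl identifier maps to Tnf, Tnfsf9, Tnfsf10, Tnfsf13b, Tnfsf15, Tnfrsf1a, Tnfrsf1b, Cd40, Fas or Ltbr. They make up 10 of the 55655 rows in each of 2 deposited tables, and 5 encode ligands and 5 encode receptors. All 9 libraries came from marrow of the femur and tibia of wild-type C57BL/6 mice aged 6 to 8 weeks, grown for 7 days with the growth factor M-CSF at 10 ng/mL. The 3 M0 libraries are the resting state and are labelled as not treated with photobiomodulation (PBM), which is irradiation with near-infrared laser light. When they were collected is not given in the sources used here. The 3 M1 libraries were polarised with lipopolysaccharide (LPS), a bacterial cell wall component, and interferon-γ (IFN-γ), and RNA was taken at 12 hours. The 3 M1+PBM libraries received the same polarisation together with PBM. The comparison of M1+PBM with M1 asks what irradiation changes in the inflammatory state, and that of M1 with M0 shows the state itself.

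Ligands of this superfamily are mostly membrane proteins that assemble as trimers, and several are released by proteases. Their receptors work through adaptor proteins of the TRAF family, which lead to NF-κB and kinase signalling, and some carry a death domain that can start apoptosis or necroptosis. In macrophages Tnf is a rapid response gene to bacterial products, and Cd40 and Fas are surface receptors that inflammatory signals are known to induce.

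Values are FPKM, the fragments assigned to a gene per kilobase of transcript and scaled to the fragments of the library, so levels can be set beside each other between genes. Differences between groups are on the scale of log2(FPKM + 1), which understates the change of genes with low FPKM. In the bulk RNA, fewer cells that use a gene and less of its RNA per cell cannot be told apart. Nothing in the labels says that the replicates were separate animals or cultures, so the p-values measure only the spread between these libraries.

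The libraries were first examined as a whole. Steps in the FPKM values put the depth between 30700000 and 42080000 fragments. All 8 macrophage markers, including Adgre1, Itgam and Csf1r, had at least 1 FPKM in all 9 libraries. Lymphoid markers summed to at most 0.753 FPKM, erythroid markers to at most 1.04 FPKM and dendritic cell markers to at most 1.66 FPKM in any library. Flt3 and Ly6g were listed at 0 in all of them. S100a9 was also listed at 0 in all of them, even in M1 replicate 3 with S100a8 at 27.2 FPKM, so its 0 is not read as absence. The neutrophil list summed to between 1.53 and 2.44 FPKM in M0 and to between 6.44 and 28.1 FPKM in the 6 other libraries, with 4 to 6 of its 9 genes at 0 and S100a8 alone at 4.94 to 27.2 FPKM in those 6, and its part in the differences from M0 was not tested. Among the 9, M0 replicate 3 and M1 replicate 2 stood apart. In M0 replicate 3 the 6 stromal markers summed to 187 FPKM, against 6.86 and 5.48 FPKM in the other M0 libraries and 6.22 to 27.2 FPKM in the M1 and M1+PBM libraries, and the inflammatory genes Il1b at 25.1 FPKM and Acod1 at 77.6 FPKM were far above their levels of 0.285 and 0.244 FPKM and of 1.54 and 0.897 FPKM in M0 replicates 1 and 2. In M1 replicate 2 the liver list summed to 19.5 FPKM, against at most 3.61 FPKM elsewhere, and Alb was at 9.01 FPKM and at 0 in the 8 other libraries. The Y-linked gene Ddx3y was listed at 0 in M1 replicate 3 and M1+PBM replicate 3 and was detected in the 7 other libraries, M0 replicate 3 included. Xist, which is transcribed in female cells, was at 55.7 FPKM in M1 replicate 3 and 64.8 FPKM in M1+PBM replicate 3 and below 0.01 FPKM in replicate 2 of both groups, so replicates 2 and 3 did not hold cells of the same mice. The counts of members that differ from M0 are therefore also given without M0 replicate 3. Those of members called with PBM are also given without M1 replicate 2. Differences of single genes are given without these libraries for some genes only.

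The bases before the start site are shown for 4 members, since the members fall into genes far above their resting level in M1 and genes close to it. Tnf, Tnfrsf1b and Fas belong to the former and Tnfrsf1a to the latter. The sequences are the 250 bases upstream of the RefSeq start site on GRCm38.p6, printed 5′ to 3′ on the strand of the gene, with matches to the searched motifs in capitals.
Tnf, chr17:35202008-35202257, minus strand: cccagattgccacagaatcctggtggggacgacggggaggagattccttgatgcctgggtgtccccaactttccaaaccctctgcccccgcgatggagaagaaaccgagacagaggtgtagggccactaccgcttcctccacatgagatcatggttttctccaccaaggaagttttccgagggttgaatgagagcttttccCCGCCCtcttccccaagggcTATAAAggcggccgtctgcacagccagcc
Tnfrsf1b, chr4:145246871-145247120, minus strand: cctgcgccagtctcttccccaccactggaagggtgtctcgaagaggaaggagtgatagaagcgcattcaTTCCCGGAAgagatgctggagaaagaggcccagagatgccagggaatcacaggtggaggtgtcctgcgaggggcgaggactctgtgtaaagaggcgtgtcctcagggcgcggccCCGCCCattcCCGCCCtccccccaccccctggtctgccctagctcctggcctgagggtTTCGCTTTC
Fas, chr19:34290409-34290658, plus strand: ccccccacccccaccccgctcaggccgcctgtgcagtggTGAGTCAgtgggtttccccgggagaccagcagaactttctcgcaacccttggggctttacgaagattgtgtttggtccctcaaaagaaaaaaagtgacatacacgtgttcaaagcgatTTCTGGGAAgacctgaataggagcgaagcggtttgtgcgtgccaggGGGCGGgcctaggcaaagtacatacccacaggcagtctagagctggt
Tnfrsf1a, chr6:125349473-125349722, plus strand: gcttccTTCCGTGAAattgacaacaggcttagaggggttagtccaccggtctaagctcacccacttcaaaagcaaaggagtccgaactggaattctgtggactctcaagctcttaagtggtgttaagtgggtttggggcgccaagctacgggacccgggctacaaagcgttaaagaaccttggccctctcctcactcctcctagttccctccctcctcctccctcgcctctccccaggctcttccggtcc

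RefSeq promoter entries were found for 8 of the 10 members. The search covered 6 motifs on both strands, namely the κB consensus, the interferon-γ activated site TTCNNNGAA, the core of the interferon-stimulated element GAAANNGAA, the AP-1 site TGANTCA, the GC box GGGCGG and the TATA box TATAAA. In Tnf the capitals are a GC box read on the opposite strand, 49 to 44 bases before the start, and a TATA box 29 to 24 bases before it, a motif found in 12.4% of all 32851 promoter windows. Tnfrsf1b held TTCCCGGAA, 181 to 173 bases upstream, a GAAANNGAA core on the opposite strand in the last 9 bases, and 2 GC boxes. Fas held TTCTGGGAA 93 to 85 bases upstream, an AP-1 match 211 to 205 bases upstream and a GC box. TTCNNNGAA was also present in Tnfrsf1a, 244 to 236 bases upstream, so among these windows it occurred in 3 receptors on both sides of the division. It occurred in 7.02% of all windows, GAAANNGAA in 7.13%, the AP-1 site in 6.75%, the GC box in 32.7% and the κB consensus in 3.9%. The GAAANNGAA core and the AP-1 site also occurred in an entry of Tnfsf13b, which was neither higher nor lower in M1. They lay 16 to 8 and 127 to 121 bases upstream. No member window held the κB consensus, and the windows of Tnfsf10 and Tnfsf15 held none of the 6 motifs. A missing match says only that these letters are not in this window.

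In resting macrophages the receptors Tnfrsf1b, Tnfrsf1a and Ltbr were transcribed at higher levels than most ligands. The receptors Fas and Cd40 had low means of 1.68 and 0.927 FPKM. Tnfrsf1b, which encodes the larger TNF receptor without a death domain, had the highest mean of the members at 142 ± 37.9 FPKM (SD, n = 3). Tnfrsf1a, which encodes the death domain receptor for TNF, stood at 52.8 ± 6.06 FPKM (SD, n = 3), and Ltbr, the lymphotoxin β receptor, at 26.5 ± 2.46 FPKM (SD, n = 3). The ranges of Tnfrsf1a and Ltbr did not overlap each other or those of the members below them. Tnfsf9, Fas, Cd40, Tnfsf15, Tnfsf10 and Tnfsf13b followed in that order, and the range of each overlapped that of the next. Tnf itself had 16.9, 14.9 and 233 FPKM in the 3 M0 libraries, so its place in the order depended on M0 replicate 3.

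In M1 macrophages 6 of the 10 members were higher than in M0, and 0 were lower. A gene counted as higher or lower where the 3 libraries of each group did not overlap and the means differed by at least 1 on the log2(FPKM + 1) scale. The groups lie in separate tables, so these differences were not tested. By the same rule 7.81% of the 13915 rows with enough signal were higher in M1 and 13.7% were lower. The 6 were Tnf, Tnfsf10, Tnfsf15, Tnfrsf1b, Cd40 and Fas, and without M0 replicate 3 Tnfsf9 joined them to make 7. The rule is easier to pass for any row with fewer M0 libraries. The shares of all rows were taken with all 3 M0 libraries only, so the 7 has no share beside it. Over the 9 members with enough signal the median difference was 2.66, beside -0.34 over all rows.

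**Figure D1:**
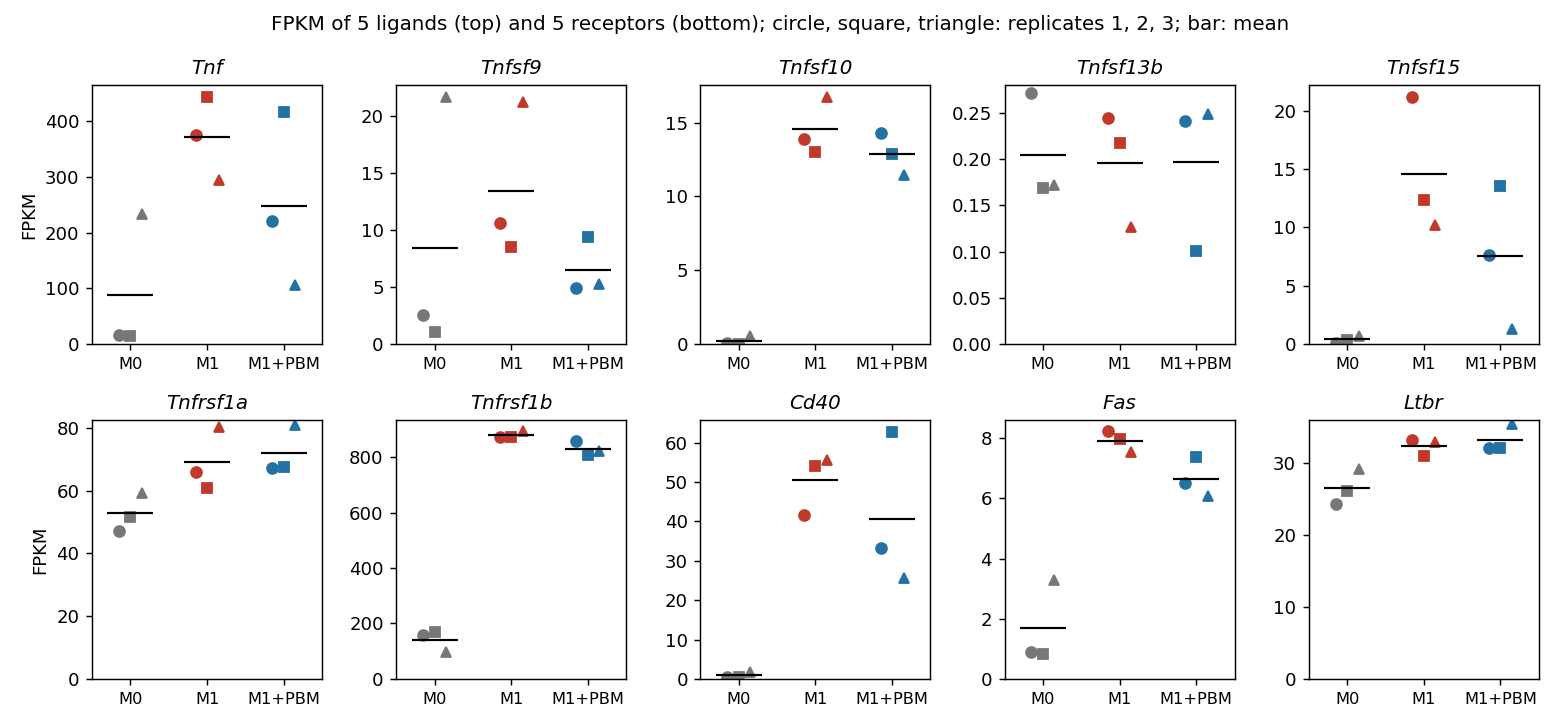
FPKM (vertical axes, each from 0) of the 5 ligands and the 5 receptors in M0, M1 and M1+PBM macrophages. Circles, squares and triangles are replicates 1, 2 and 3 and bars are means of 3 libraries. Tnfsf10, Tnfsf15, Tnfrsf1b, Cd40 and Fas sit higher in all 6 polarised libraries than in the 3 M0 libraries, and the M0 triangle of Tnf at 233 FPKM lies among the polarised libraries.

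Tnf, the founding cytokine of the family and the ligand of Tnfrsf1a and Tnfrsf1b, reached 375, 443 and 295 FPKM in the 3 M1 libraries. All 3 exceeded the highest M0 value of 233 FPKM. The difference from M0 was 3.18 on the log2 scale, and 4.44 without M0 replicate 3, where the mean of the 2 other M0 libraries was 15.9 FPKM. M0 replicate 3 held 14.7 times that mean, and the part of its stromal and inflammatory transcripts in these values was not tested. Tnf in M0 replicate 3 was thus higher than in 2 of the 3 M1+PBM libraries, which had 221 and 106 FPKM beside 417 FPKM in replicate 2.

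Tnfsf9 encodes 4-1BBL, a costimulatory ligand for T cells. It had 2.57, 1.03 and 21.7 FPKM in M0 and 10.6, 8.52 and 21.3 FPKM in M1. The groups overlapped through M0 replicate 3, which held more than any M1 library. The difference was 1.30 with that library and 2.33 without it. A non-coding gene on the opposite strand, Gm11110, overlaps Tnfsf9 in GENCODE release M21 and reached at most 1.71 FPKM. The kit keeps the strand, but whether the counting used it is not given in the sources used here, so the low Tnfsf9 values are uncertain.

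Tnfsf10 encodes TRAIL, a ligand of death receptors. It had 0.105, 0.045 and 0.523 FPKM in M0, roughly 7.63 to 90.3 fragments when counted over its longest transcript, and 13.9, 13.0 and 16.7 FPKM in M1. The groups were far apart, and the difference of 3.68 became 3.85 without M0 replicate 3. Tnfsf15, which encodes the ligand TL1A, had 0.142, 0.395 and 0.683 FPKM in M0 and 21.1, 12.3 and 10.2 FPKM in M1, a difference of 3.42. The lowest M1 library again lay well above the highest M0 library. Tnfsf13b, which encodes the B cell survival factor BAFF, stayed below 0.3 FPKM in all 9 libraries, with 0.272, 0.169 and 0.172 FPKM in M0 and 0.245, 0.217 and 0.126 FPKM in M1. These amount to between 18.9 and 46.3 fragments a library, and no difference was detectable at this depth. A gene of the opposite strand that awaits experimental evidence, Gm44789, reached 0.27 FPKM there, as much as Tnfsf13b itself.

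Among the receptors, Tnfrsf1b and Tnfrsf1a, which share TNF as a ligand, differed in their pattern. Tnfrsf1b had 159, 168 and 98.1 FPKM in M0 and 872, 872 and 895 FPKM in M1, a difference of 2.66 with no overlap. Tnfrsf1a had 47.3, 51.7 and 59.3 FPKM in M0 and 66.0, 60.9 and 80.2 FPKM in M1. Its groups did not overlap either, but its difference of 0.38 was below the threshold of 1. Within a library the ratio of Tnfrsf1b to Tnfrsf1a, which does not depend on how that library was scaled, was 3.37, 3.24 and 1.66 in M0 and 13.2, 14.3 and 11.2 in M1. M0 replicate 3 had the lowest ratio of all 9 libraries. In M1+PBM the ratio was 12.7, 12.0 and 10.2, and its log2 value was 0.15 below that in M1, with an exact two-sided permutation p of 0.4. With 3 libraries against 3 such a test cannot go below 0.1.

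Cd40, the costimulatory receptor that T cells engage through CD40 ligand, had the largest difference of the members on the log2(FPKM + 1) scale. It had 0.470, 0.478 and 1.83 FPKM in M0 and 41.6, 54.0 and 55.7 FPKM in M1, a difference of 4.80 with M0 replicate 3 and 5.11 without it. As a ratio of mean FPKM the difference of Cd40 was 54.4-fold, and 106-fold without M0 replicate 3, below the 64.8-fold and 194-fold of Tnfsf10. Fas, a death domain receptor, had 0.908, 0.823 and 3.30 FPKM in M0 and 8.24, 7.97 and 7.55 FPKM in M1, a difference of 1.86. All M1 libraries lay above M0 replicate 3. A short RNA gene inside Fas on the same strand, Gm27818, reached 1.24 FPKM, and how reads were shared between them is not given in the sources used here. Ltbr had 24.2, 26.1 and 29.1 FPKM in M0 and 33.1, 31.0 and 32.9 FPKM in M1, which did not overlap, at a difference of 0.28.

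The order of levels in M1 was clearer than in M0. Tnfrsf1b at a mean of 879 ± 13.4 FPKM (SD, n = 3) was followed by Tnf, Tnfrsf1a, Cd40 and Ltbr, and none of these overlapped the next. Tnfsf15, Tnfsf10 and Tnfsf9 had means of 14.6, 14.5 and 13.5 FPKM and overlapped one another in turn. Fas at 7.92 ± 0.349 FPKM (SD, n = 3) lay below all 3, and Tnfsf13b was last. In M1+PBM the leading 3 kept their order without overlap, while the ranges of Cd40 and Ltbr overlapped, as did those of Tnfsf10, Tnfsf15 and Fas with the next in order.

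M1+PBM macrophages were set against M0 by the same rule and share the M0 libraries with the comparison above. Of the members, 5 were higher, namely Tnfsf10, Tnfsf15, Tnfrsf1b, Cd40 and Fas, and 0 were lower, where 7.13% of all rows were higher and 10.3% lower. Without M0 replicate 3 the number was 7, with Tnf and Tnfsf9 added, and the shares of all rows were again not taken without that library. The difference of Tnf from M0 was 2.41 in M1+PBM beside 3.18 in M1, and that of Tnfsf15 was 2.26 beside 3.42. For Tnfsf10 the values were 3.52 and 3.68, for Tnfrsf1b 2.58 and 2.66, and for Cd40 4.40 and 4.80.

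**Figure D2:**
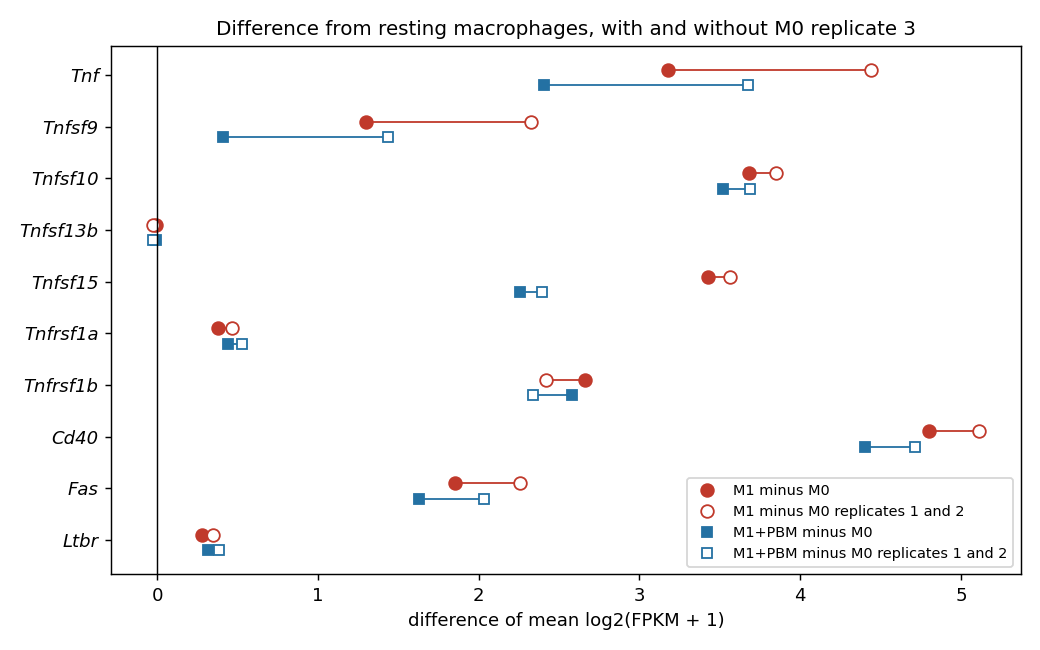
Difference of mean log2(FPKM + 1) from M0 (horizontal axis) for each member, in M1 (circles) and M1+PBM (squares). Filled symbols use 3 M0 libraries and open symbols leave out M0 replicate 3. Tnf moves from 3.18 to 4.44 in M1 and Tnfsf9 from 1.30 to 2.33, while Tnfrsf1a and Ltbr stay below 1 either way.

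Irradiation was tested by limma over the 12238 rows with at least 1 FPKM in at least 3 of the 6 polarised libraries. The fit held 9 members, and Tnfsf13b was below that minimum. By the thresholds of the study, which ask for an unadjusted p of at most 0.05 and a log2 fold change of 1 or more in size, 0 of the 9 were called, where 0.237% of all rows were called lower and 0.0245% higher. At an adjusted p under 0.05 (Benjamini-Hochberg) 0 were called as well, beside 0.00817% of all rows, which is 1 row. Without the fold threshold 1 member, Tnfsf9, had an unadjusted p of at most 0.05, and it was lower in M1+PBM, as were 1.45% of all rows, while 2.99% were higher. Of the 9, 7 had a log2 fold change below 0, and the median was -0.22, where the median of all rows was 0.06 and 8026 of the 12238 lay above 0. The 2 groups did not overlap for Tnfrsf1b and Fas, both lower with PBM, where 2.52% of all rows were lower in this way and 8.51% higher. The call depended on replicate 2 of each group. Without M1+PBM replicate 2, 3 members passed the thresholds of the study, namely Tnf at a log2 fold change of -1.25, Tnfsf9 at -1.15 and Tnfsf15 at -1.73. Without M1 replicate 2, the library with liver transcripts, Tnfsf9 alone passed, at -1.14.

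The 4 ligands tested were all below 0, with a median of -0.83, and the 5 receptors had a median of -0.09. The median of the ligands was -0.34 without M1+PBM replicate 3 and ran to -1.20 over the other left-out libraries, and that of the receptors lay between -0.11 and -0.07. Tnf, at 375, 443 and 295 FPKM in M1 and 221, 417 and 106 FPKM in M1+PBM, was lower in replicates 1 and 3 of the irradiated group and overlapped M1 through replicate 2. The log2 fold change of Tnf was -0.77 ± 0.47 (SE), with a limma p = 0.15, an adjusted p = 0.90 and an exact permutation p = 0.3. It was -1.25 without M1+PBM replicate 2 and -0.27 without M1+PBM replicate 3. The same-numbered libraries were found to deviate together, and in the fit with a replicate block Tnf had a limma p = 0.036 and an adjusted p = 0.58, beside that exact permutation p = 0.3. Tnfsf9 had 4.89, 9.43 and 5.29 FPKM in M1+PBM, beside 10.6, 8.52 and 21.3 FPKM in M1. Only replicate 2 of the irradiated group exceeded the lowest M1 library. The log2 fold change of Tnfsf9 was -0.89 ± 0.36 (SE), with a limma p = 0.047, an adjusted p = 0.90, a limma p = 0.066 with the replicate block and an exact permutation p = 0.2. The call at an unadjusted 0.05 thus passed from Tnfsf9 to Tnf with the block. Over all 12238 rows the block put 396 at that threshold on the lower side and 592 on the higher side. Without the block these were 177 and 366. M1 replicate 3, with 21.3 FPKM, carried much of the difference in Tnfsf9, which was -0.53 without it.

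Tnfsf15 had 7.65, 13.6 and 1.32 FPKM in M1+PBM, spread over a wider range than the 10.2 to 21.1 FPKM of M1. It had the lowest log2 fold change of the members, -1.17 ± 0.67 (SE, limma adjusted p = 0.90, exact permutation p = 0.3), and the 95% interval ran from -2.77 to 0.44. M1+PBM replicate 3 alone lay far below the rest, and without it the log2 fold change was -0.41. Tnfsf10 had 14.3, 12.9 and 11.4 FPKM, which overlapped M1, at -0.16 ± 0.13 (SE, limma adjusted p = 0.90). Tnfsf13b had 0.241, 0.101 and 0.249 FPKM, a range that spans that of M1.

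Of the receptors, Cd40 had 33.2, 62.7 and 25.7 FPKM in M1+PBM, with replicate 2 above and replicates 1 and 3 below all M1 libraries. The log2 fold change was -0.40 ± 0.32 (SE, limma adjusted p = 0.90), and it was -0.76 without M1+PBM replicate 2 and -0.13 without M1+PBM replicate 3. Fas had 6.50, 7.37 and 6.08 FPKM, all 3 below the lowest M1 library at 7.55 FPKM, and a log2 fold change of -0.22 ± 0.10 (SE, limma adjusted p = 0.90). Tnfrsf1b had 856, 808 and 822 FPKM, again all below the lowest M1 library at 872 FPKM, but the distance was small, at -0.09 ± 0.10 (SE, limma adjusted p = 0.90). The exact two-sided permutation p of both genes was 0.1, the smallest that 3 against 3 allows. Under quantile normalisation the difference of Tnfrsf1b turned to 0.04.

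Tnfrsf1a and Ltbr were the 2 members above 0. Tnfrsf1a had 67.3, 67.6 and 80.9 FPKM in M1+PBM, overlapping M1, and Ltbr had 32.0, 32.1 and 35.4 FPKM, overlapping M1 as well. Their log2 fold changes of 0.06 ± 0.14 and 0.04 ± 0.09 (SE) had 95% intervals of -0.28 to 0.40 and -0.19 to 0.26, and both turned below 0 under median-of-ratios scaling, at -0.02 and -0.04. That scaling moves the median of all rows from 0.06 to -0.01.

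Within the pairs of same-numbered libraries the members moved unevenly. The median difference over the 9 tested members was -0.30 in replicate 1, 0.05 in replicate 2 and -0.51 in replicate 3. Tnf differed by -0.76, -0.09 and -1.46, Tnfsf9 by -0.98, 0.13 and -1.82, and Tnfsf15 by -1.36, 0.13 and -2.27. Cd40 followed the same order of pairs, at -0.32, 0.21 and -1.09. Fas and Tnfrsf1b were below 0 in all 3 pairs. The pair of replicate 2 includes the M1 library with liver transcripts, and the part of those transcripts in these values was not tested. The pairs also differed in Xist. In M1 and M1+PBM it was at 11.6 and 13.0 FPKM in replicate 1, 0.0015 and 0.0013 FPKM in replicate 2, and 55.7 and 64.8 FPKM in replicate 3. Replicate 1 of these groups held Ddx3y as well, at 3.45 and 3.79 FPKM. The part of the sex of the cells in these values was not tested either.

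**Figure D3:**
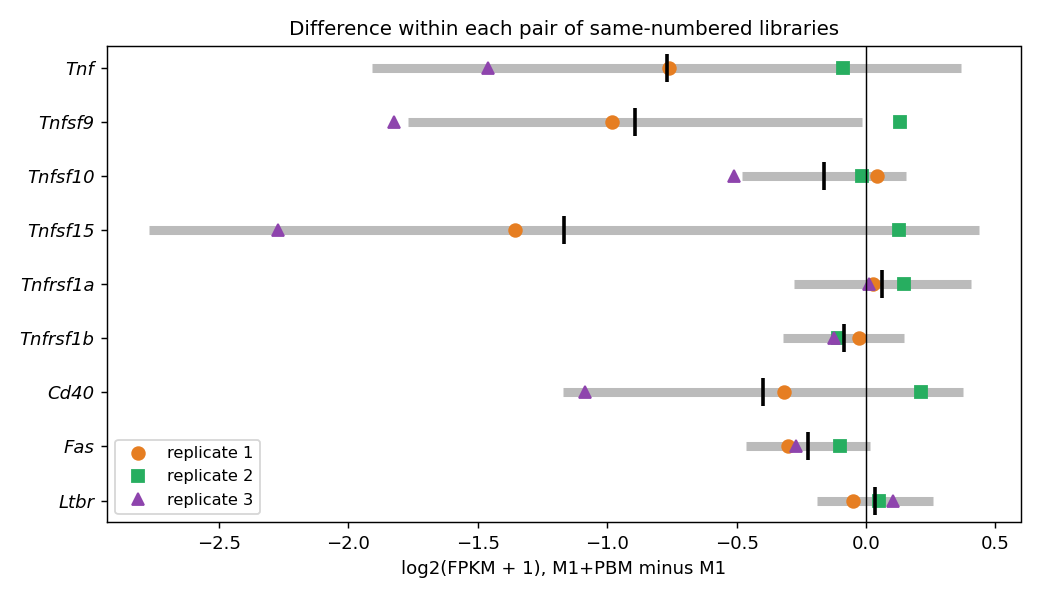
Difference of log2(FPKM + 1), M1+PBM minus M1 (horizontal axis), for the 9 tested members. Coloured symbols are the 3 pairs of same-numbered libraries, black ticks the limma estimate without a block and grey bars its 95% interval. The replicate 2 squares of Tnf, Tnfsf9, Tnfsf15 and Cd40 lie between -0.09 and 0.21, while the triangles of replicate 3 lie between -1.09 and -2.27.

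The binding partners of the members were mostly near or below the detection range in these cells. Of 14 cognate ligands and receptors, 2 had enough signal to be tested for PBM, and neither passed. The ligands Cd40lg and Fasl, products of activated lymphocytes, reached at most 0.022 FPKM in any library. The Tnfsf9 receptor Tnfrsf9 reached at most 1.45 FPKM, in M1+PBM replicate 3, and Tnfrsf25, the receptor for Tnfsf15, at most 0.063 FPKM. The TRAIL receptor Tnfrsf10b had 0.413, 0.121 and 1.41 FPKM in M0 and at most 0.305 FPKM in M1, and the decoy receptor Tnfrsf11b was at 0 in M0 replicates 1 and 2 and at 0.760 FPKM in M0 replicate 3. Of the BAFF receptors, Tnfrsf13c and Tnfrsf17 reached at most 0.12 FPKM, while Tnfrsf13b was lower in M1 (1.98, 2.41 and 2.25 FPKM) than in M0 (5.92, 6.00 and 5.35 FPKM). Tnfrsf22 was also lower, with 2.83, 2.92 and 2.89 FPKM in M0 and 0.928, 1.13 and 0.735 FPKM in M1, and Tnfrsf23 overlapped between the groups. Tnfrsf22 and Tnfrsf23 are neighbouring and similar genes, so the split of reads between them is uncertain. Lta, which encodes lymphotoxin α and lies beside Tnf, was at 0, 0 and 0.091 FPKM in M0 and 0.698, 1.28 and 0.863 FPKM in M1, and its neighbour Ltb and the ligand Tnfsf14 stayed below 2.1 FPKM throughout.

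Among 8 other ligands of the superfamily, Tnfsf12, which encodes TWEAK, and Tnfsf13, which encodes APRIL, were lower in M1 than in M0. Tnfsf12 had 38.2, 36.7 and 20.3 FPKM in M0 and 7.27, 7.02 and 4.45 FPKM in M1, a difference of -2.15. Tnfsf13 had 3.63, 3.78 and 2.02 FPKM in M0 and 0.370, 0.505 and 0.314 FPKM in M1. The 2 genes are neighbours with known read-through transcripts, so their values are not independent. Tnfsf4, the OX40 ligand, had the largest difference upward at 0.54 and did not reach the threshold. Tnfsf12 was the sole gene of this list tested for PBM, at -0.13 (limma adjusted p = 0.96).

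Of 14 other receptors, Tnfrsf8 and Tnfrsf14 were higher in M1 and Tnfrsf21 was lower. Tnfrsf14, which encodes the receptor HVEM, had 18.0, 16.8 and 23.1 FPKM in M0 and 75.8, 93.4 and 93.4 FPKM in M1. Tnfrsf21, a death domain receptor, had 10.6, 17.6 and 8.37 FPKM in M0 and 3.68, 5.25 and 1.31 FPKM in M1. Tnfrsf8, which encodes CD30, had 0.561, 0.338 and 0.454 FPKM in M0, 5.02, 4.92 and 5.89 FPKM in M1 and 3.63, 4.35 and 3.28 FPKM in M1+PBM. All 3 irradiated libraries were below all M1 libraries, at -0.40 ± 0.12 (SE, limma adjusted p = 0.90). For PBM 6 of these receptors were tested, and Tnfrsf8 was the only one with an unadjusted p of at most 0.05 without the block. With the replicate block Tnfrsf11a, which encodes RANK, also passed that threshold, on the higher side (adjusted p = 0.58).

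Release of TNF from the membrane depends on the protease Adam17 and its partner Rhbdf2. Adam17 had 40.5, 35.4 and 35.9 FPKM in M0, 40.5, 51.6 and 41.7 FPKM in M1 and 42.1, 52.4 and 38.8 FPKM in M1+PBM, a difference of 0.25 between M1 and M0 and of -0.01 with PBM. Rhbdf2 had 14.2, 12.4 and 18.4 FPKM in M0, 56.5, 48.5 and 73.1 FPKM in M1 and 45.9, 48.4 and 41.9 FPKM in M1+PBM, so that it was higher in M1 by 1.91, and all irradiated libraries were below all M1 libraries. With PBM its log2 fold change was -0.36 (limma adjusted p = 0.90). Of the 9 shedding and cleavage genes, Rhbdf2 and Sppl2a were higher and Adam10 lower in M1 than in M0. Furin, a protease that processes ligand precursors, was at -0.41 with PBM (limma adjusted p = 0.90) and was the only one of the 7 tested with an unadjusted p of at most 0.05, which it lost with the replicate block. Timp3, an inhibitor of Adam17, had 9.14 FPKM in M0 replicate 3 and at most 1.29 FPKM elsewhere.

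Below the receptors, 4 of 21 adaptor and kinase genes were higher in M1 than in M0 and 0 were lower. By the same rule 7.81% of all rows were higher and 13.7% lower, shares that stand beside the other gene lists as well. The 4 genes were Traf1, Traf2, Birc3 and Rnf31, and the first 3 encode members of the complex that receptors without a death domain recruit. Traf1 had 1.73, 0.730 and 5.42 FPKM in M0, 28.5, 35.1 and 35.2 FPKM in M1 and 20.4, 35.3 and 14.5 FPKM in M1+PBM, the same order of replicates with PBM as Cd40. Its log2 fold change of -0.56 had the lowest p of the list (limma adjusted p = 0.90). Traf2 and Birc3 differed by -0.05 and -0.10 with PBM. Tab1 had the largest difference downward from M0 in this list at -0.59, which missed the threshold. It had 9.79, 7.45 and 7.33 FPKM in M0 and 5.14, 5.86 and 4.29 FPKM in M1. Ripk1, the kinase of the Tnfrsf1a complex, had 13.6, 14.0 and 12.4 FPKM in M0 and 9.43, 9.68 and 10.6 FPKM in M1, and Map3k14, the kinase of the non-canonical NF-κB pathway, differed by 0.28 with PBM (limma adjusted p = 0.90). None of the 21 had an unadjusted p of at most 0.05 with limma, while with the replicate block Traf5 and Map3k5 did, both lower (adjusted p = 0.58 and adjusted p = 0.58). With the block 396 of all 12238 rows were lower at that threshold. Traf3 did not overlap between the groups and was lower, and Birc2 did not overlap and was higher. Of all rows tested, 2.52% were lower with PBM in this way and 8.51% higher.

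Among 8 inhibitors of receptor signalling, 7 were tested for PBM, and Tnfaip3 had the lowest p. Tnfaip3, which encodes the ubiquitin-editing enzyme A20, had 3.90, 5.06 and 19.3 FPKM in M0, 43.4, 38.6 and 54.3 FPKM in M1 and 23.7, 38.3 and 25.9 FPKM in M1+PBM. It was higher in M1 than in M0 by 2.44, and M1+PBM replicate 2 lay just below M1 replicate 2 so that the groups did not overlap. The log2 fold change of Tnfaip3 with PBM was -0.63 ± 0.21 (SE, limma adjusted p = 0.90), and its unadjusted p was at most 0.05 with and without the replicate block. Tnip1, a partner of A20, was the other of the 8 genes that was higher in M1. Otulin, a deubiquitinase, had the largest difference downward at -0.98, which missed the threshold, but it was lower in M1 by the rule without M0 replicate 3, at -1.13.

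Among the 10 genes of the death branch, 4 were higher in M1, Cflar, Mlkl and Daxx among them, and 0 were lower. Mlkl, the executor of necroptosis, had 5.16, 2.81 and 9.19 FPKM in M0, 52.4, 49.6 and 52.5 FPKM in M1 and 45.3, 43.3 and 45.7 FPKM in M1+PBM. The irradiated libraries lay below M1 without overlap, at -0.20 ± 0.09 (SE, limma adjusted p = 0.90), and the unadjusted p was at most 0.05 with the replicate block only. Cflar, which encodes the caspase-8 inhibitor FLIP, had 9.59, 8.97 and 17.1 FPKM in M0, 66.9, 71.5 and 71.9 FPKM in M1 and 60.2, 72.4 and 48.2 FPKM in M1+PBM. Casp8 differed from M0 by 0.98, just under the threshold, and was higher in M1 by the rule without M0 replicate 3, at 1.05. With PBM it differed by -0.10, while the adaptor Fadd differed by -0.48 from M0 and by 0.12 with PBM. None of the death branch genes described here was called with PBM.

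**Figure D4:**
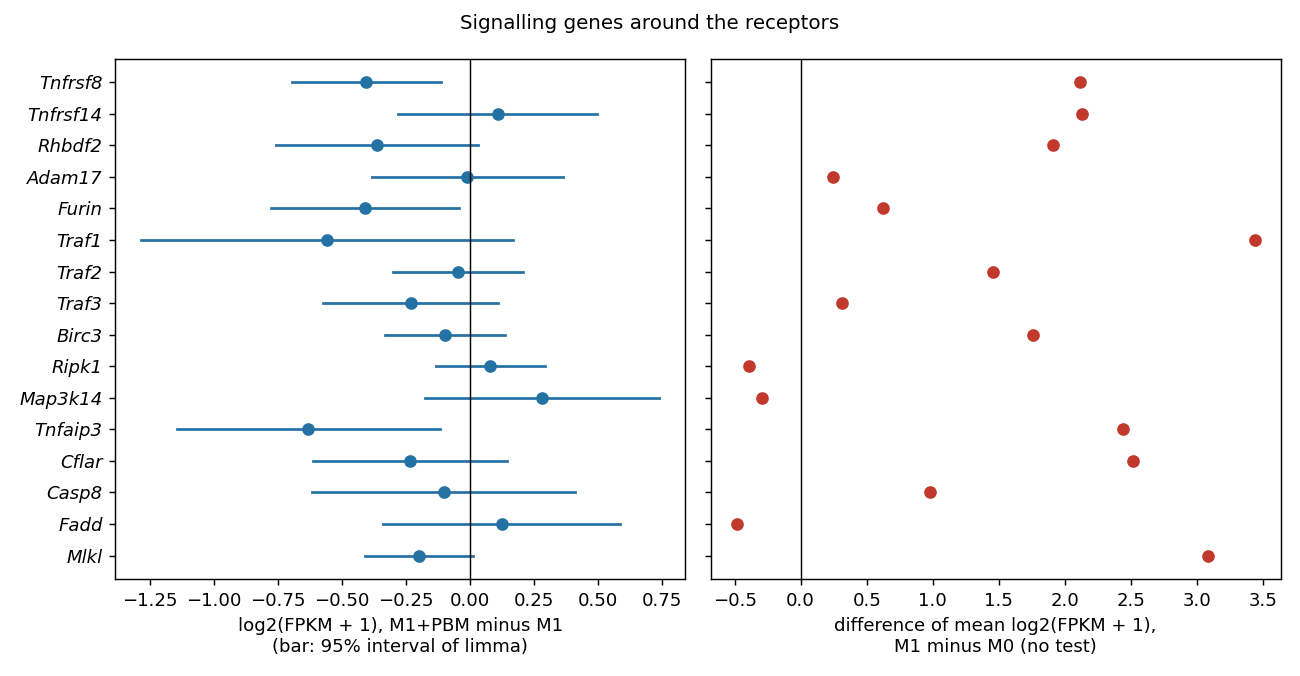
Left, log2 fold change of M1+PBM against M1 with its 95% limma interval for receptors, shedding, adaptor, inhibitor and death branch genes. Right, the difference of mean log2(FPKM + 1) between M1 and M0, which was not tested. Tnfrsf8, Furin and Tnfaip3 have intervals below 0, and Traf1, Mlkl and Cflar are among the genes farthest above M0 on the right.

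The genes whose pattern over the 9 libraries lay nearest to 3 of the members were found by the root-mean-square difference of centred log2(FPKM + 1). For Tnf they were Lox, Ier3 and Marcksl1, at 0.48, 0.59 and 0.61. Lox had 24.1 FPKM in M0 replicate 3, beside 1.07 and 2.61 FPKM in the other M0 libraries, and 19.1 FPKM in M1+PBM replicate 3. For Tnfsf9 they were Ets2, Csf1 and Ptx3, at 0.43, 0.44 and 0.44, and all 3 were also highest among the M0 libraries in replicate 3. For Cd40 they were Calhm6, Bcl2a1a and Adora2a, at 0.28, 0.28 and 0.34. Adora2a had 20.5, 37.0 and 7.88 FPKM in M1+PBM, the order of replicates seen for Cd40. Bcl2a1a has near-identical copies, and its value is uncertain for that reason.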

How the data were processed

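RNA of 3 M0, 3 M1 and 3 M1+PBM libraries was made into strand-specific libraries by the service the study used. The values deposited by the authors are FPKM, in a table of M0 and a table of the 6 other libraries. The study names Cufflinks methods, and the submitters' processing notes name Bowtie 0.12.2 and mm9. The rows carry Ensembl identifiers, which were paired with symbols of GENCODE release M21 for 55154 of 55655 rows. Depth was estimated from steps of FPKM in genes with a single transcript, where 23.6% to 25.2% of low values lay within 0.05 fragments of a whole number (10% if spread evenly). The depth kept for each library was the candidate with the highest such share. The 10% holds for a depth fixed beforehand, so the comparison does not measure how well the depth is known. Reads were not recovered, and no count test was run.

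For the test of PBM, limma 3.58.1 in R 4.3.3 was fitted to M1 and M1+PBM (lmFit, eBayes with a trend) on log2(FPKM + 1), after tests on simulated data, with p-values adjusted over all 12238 rows. Levels across the 2 tables were set side by side without a test. The study's text does not name its test for differential expression. Same-numbered M1 and M1+PBM libraries deviated from their group means together (r = 0.157, 0.469 and 0.462), and different numbers had r of -0.491 to 0.033. Deviations from a mean of 3 libraries sum to 0, so these values are not independent of each other. The numbers were taken as pairs in an alternative fit with a replicate block. The main fit and the exact permutation tests did not use the pairs.

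The genes named are the members, their binding partners, 13 signalling genes fixed by role, in each further list the gene with the lowest p and those with the largest difference from M0 in each direction, and the 3 genes nearest in pattern to Tnf, Tnfsf9 and Cd40. Rnf31, Sppl2a, Tnip1, Daxx, Birc2, Traf5, Map3k5, Tnfrsf11a and Timp3 were added to the text once their values had been seen. Some list genes are not reported here. The members and lists were chosen with earlier results of these data known. Alternatives were another pseudocount, filter, scaling or variance model, the block, and leaving out each library. The replicate block with a pseudocount of 0.1 was added after seeing the data.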

Additional observations from a re-analysis of the deposited data

How the results depend on the processing

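No member was called by the thresholds of the study under any alternative fit of all 6 libraries, and leaving out 1 library gave 0 to 3 called members (3 without M1+PBM replicate 2, 1 without M1 replicate 2). The number of all rows called was 32 and moved to 75 with a pseudocount of 0.1, 13 without moderation of the variance and 27 to 89 when 1 library was left out, with 89 without M1+PBM replicate 2 and 69 without M1 replicate 2. With the replicate block it was 45, and with the replicate block and a pseudocount of 0.1 together it was 94. The block changed the side of the unadjusted threshold for Tnf and Tnfsf9 and for no other member. Fas, above that threshold in the main test, passed it under median-of-ratios scaling, quantile normalization, no minimum FPKM, no moderation of the variance and without M1+PBM replicate 2, and Tnfrsf1b passed it without moderation. Tnfsf9 lost it without a minimum FPKM, with a mean FPKM of at least 5, without moderation and without replicate 1 or 3 of either group. Tnf, Tnfsf15 and Cd40 passed it without M1+PBM replicate 2. The log2 fold change of Tnfrsf1a turned to -0.017 under median-of-ratios scaling and lay between -0.024 and 0.174 when 1 library was left out. Ltbr turned to -0.042 under median-of-ratios scaling and lay between -0.011 and 0.060 in the same way. Tnfrsf1b turned to 0.042 under quantile normalization. The median of the members stayed between -0.29 and -0.13 over the left-out libraries. The causes were not tested. Exact tests of 3 libraries against 3 cannot go below p = 0.1, and the M0 values, in a table of their own, were described only.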
